A study of Homo sapiens with 6 samples.

Results

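The integrated stress response slows protein synthesis and turns on a set of repair genes. Kinases that sense unfolded protein, lack of amino acids, viral RNA or lack of heme phosphorylate the initiation factor eIF2. General translation then falls, while the mRNA of the transcription factor ATF4 is translated better, through short open reading frames in its leader. ATF4 and its partners raise genes for amino acid supply, for feedback and, under lasting stress, for cell death. The 10 genes described here are ATF4 itself, the transcription factors ATF5, DDIT3 (encoding CHOP) and CEBPB, the enzymes ASNS and CHAC1, the feedback regulators TRIB3 and PPP1R15A, and SESN2 and DDIT4, which restrain the growth kinase complex mTORC1. They were picked by name as a known pathway and also because SESN2 was higher after knockdown in these same libraries. Each of the 10 symbols matched 1 of the 62438 genes in the count table, and all 10 were among the 17320 genes that passed the expression filter.

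Libraries were made from MDA-MB-453 cells, by their label a line from human breast cancer, that had received 10 nM of siRNA against N6AMT1 (si-N6AMT1) or scrambled siRNA (si-CN) 48 h earlier, with 3 libraries in each group. The study asked which genes change when N6AMT1, a methyltransferase described as a writer of 6mA in DNA, is reduced. All cells received siRNA and transfection reagent, a single siRNA group stands for the knockdown, and the cells are described as triplicate without saying whether they were grown and transfected apart, so p-values measure the spread between these libraries, which may be technical. Libraries held 19739247 to 21289740 estimated counts. N6AMT1 itself had 60 to 72 counts in si-N6AMT1 and 135 to 141 in si-CN libraries, which gave a log2 fold change of -1.10 (standard error, SE, 0.119). Of the markers expected in this line, the luminal keratins KRT8 and KRT18, EPCAM and ERBB2 were present. Keratins of basal cells, not expected in a luminal line, were present too. KRT5 had 753.6 to 836.0 CPM (counts relative to library size, after TMM scaling), and KRT14 104.6 to 127.5 CPM. FOXA1, also expected in this line, was low, at 7.7 to 8.9 CPM. CDH1 was low too, at 4.0 to 7.4 CPM, but is not used here to judge the label. VIM and COL1A1, listed as markers of stroma, had 615.2 to 636.3 and 44.4 to 46.9 CPM. ERBB2, called present above, had 51.7 to 54.2 CPM, not much more than COL1A1. The name of the line is therefore used here only as a label.

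Because the choice of genes drew on the same contrast, values of the 10 genes are given as a description, without a test. Of the 10, 8 had a positive and 2 a negative log2 fold change, with a median of 0.07, beside a median of 0.00387 over all genes tested. By the common threshold, an FDR under 0.05 in edgeR's quasi-likelihood test over all genes, 4 of them were called higher (SESN2, DDIT3, ASNS and CEBPB) and 2 lower (ATF5 and PPP1R15A). Over all tested genes, 9.78% were called higher, 11.5% lower and 21.3% in either direction. In the same 6 genes the 3 si-N6AMT1 libraries did not overlap the 3 si-CN libraries, which was so upward in 16.8%, downward in 18.0% and either way in 34.9% of all tested genes. ATF4, TRIB3, DDIT4 and CHAC1 overlapped between groups.

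**Figure D1:**
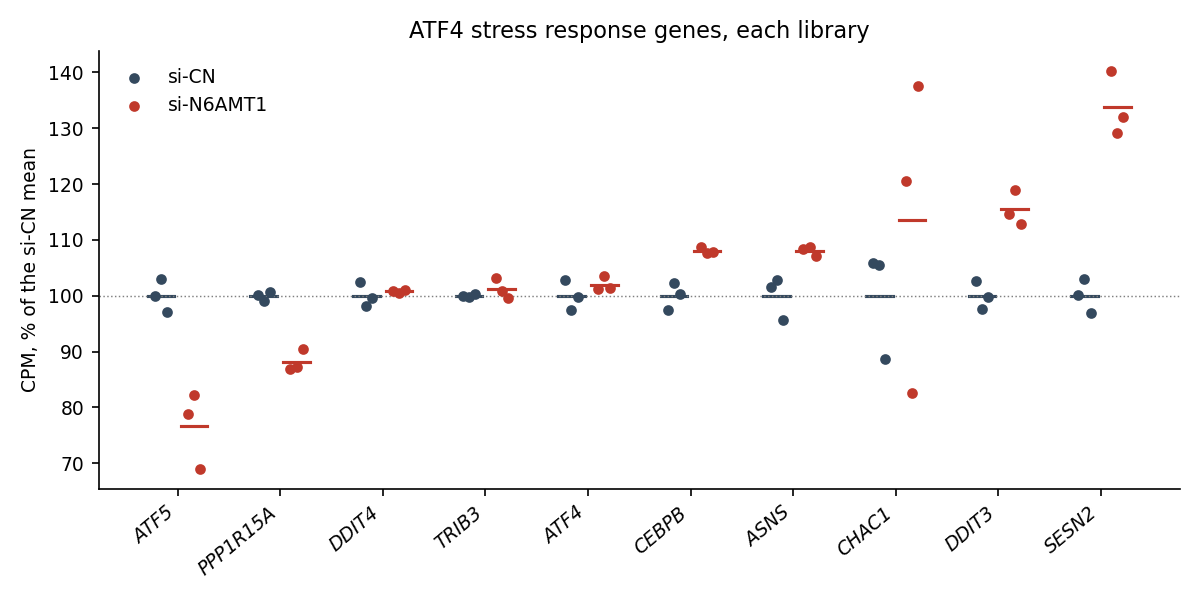
Expression of each of the 10 genes in each library, as CPM in percent of the mean of the 3 si-CN libraries, with genes ordered by fold change along the x axis. Points are libraries and short lines are group means of 3 libraries. SESN2 and DDIT3 lie above and ATF5 and PPP1R15A below their si-CN libraries, while CHAC1 is widely scattered.

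Some sequence features bear on how these genes are known to be controlled and were not used to choose them. ATF4 and its partners bind the C/EBP-ATF response element, searched here as TGATGNAAN on both strands in RefSeq promoter windows from 250 bases before to 50 bases after a start site. All 10 genes had a window, 18 in all. The motif lay in a window of 2 of the 10 genes, ASNS and CHAC1, and in 3.61% of 35093 windows of all genes, or 4.45% of 27305 genes when any window counts. In ASNS it began 68 bases before the start at position 97501720 of chromosome 7, and in CHAC1 210 bases before the start at position 41245669 of chromosome 15, where it is on the reverse strand. A stretch of 30 bases around each is shown on its gene's strand, with the motif in capitals. Both windows were placed on GRCh37 by exact match, ASNS at chr7:97501769-97501798 on the minus strand and CHAC1 at chr15:41245449-41245478 on the plus strand.
ASNS: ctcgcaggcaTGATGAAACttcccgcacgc
CHAC1: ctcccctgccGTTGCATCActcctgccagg

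The window of SESN2, the gene with the largest difference between groups among the 10, did not hold these letters. Its 250 bases before the start are shown for comparison, from chr1:28585779-28586028 (GRCh37, plus strand).
SESN2: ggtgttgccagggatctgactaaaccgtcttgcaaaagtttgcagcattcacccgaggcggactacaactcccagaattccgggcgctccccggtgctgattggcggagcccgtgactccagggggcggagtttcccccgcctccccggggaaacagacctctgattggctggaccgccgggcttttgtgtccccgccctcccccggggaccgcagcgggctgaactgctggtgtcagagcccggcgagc

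Leaders of at least 20 bases were read from 1 reference transcript per gene. Upstream start codons (ATG) were present in 6 of the 10 genes, compared with 43.2% of 12593 tested protein-coding genes. ATF4 and DDIT3 had 3 each, ATF5, TRIB3 and PPP1R15A had 2 each, SESN2 had 1, and ASNS, CHAC1, DDIT4 and CEBPB had 0. An upstream frame that ran into the coding sequence out of frame was found in 3 of the 10, ATF4, ATF5 and DDIT3, and in 13.2% of the tested genes. ATF4 and ATF5 are the textbook cases of translation controlled by such a frame. RNA-seq counts measure mRNA and say nothing of how well these leaders were translated.

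SESN2 (chromosome 1, 28586029 to 28609002 on the plus strand) encodes a sestrin, a leucine sensor that holds mTORC1 back when amino acids are short. It had 46.0, 42.4 and 43.3 CPM in the 3 si-N6AMT1 libraries and 32.8, 33.8 and 31.8 CPM in the 3 si-CN libraries. Every si-N6AMT1 library was above every si-CN library. The group means were 43.9 ± 1.89 CPM (SD, n = 3) and 32.8 ± 1.02 CPM (SD, n = 3), and the log2 fold change was 0.42 (SE 0.0450), or 1.34-fold. Its difference was larger in size than that of 92.7% of all tested genes. With each library left out in turn it ran from 0.39 to 0.45. DDIT4 (chromosome 10, 74033678 to 74035794 on the plus strand), whose product REDD1 also restrains mTORC1 but by way of the TSC complex, had 1009, 1005 and 1011 CPM in si-N6AMT1 and 1024, 981.1 and 995.1 CPM in si-CN libraries. These groups overlapped, and the log2 fold change was 0.01 (SE 0.0205), the smallest among the 10 genes. At 19359 to 21150 counts per library it was also the most deeply counted of them.

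ATF4 (chromosome 22, 39915700 to 39918688 on the plus strand), the transcription factor at the centre of the response, had 337.1, 344.6 and 337.4 CPM in si-N6AMT1 and 342.7, 324.3 and 332.2 CPM in si-CN libraries. One si-CN library lay within the si-N6AMT1 range and the others below it, and the log2 fold change was 0.03 (SE 0.0236). Its counts of 6399 to 7061 per library leave little counting error, 1.22% in si-CN libraries. DDIT3 (chromosome 12, 57910371 to 57915520 on the minus strand) encodes CHOP, a partner of ATF4 and C/EBP proteins that is tied to cell death under lasting stress. It had 80.4, 83.3 and 79.1 CPM in si-N6AMT1 against 71.9, 68.4 and 69.9 CPM in si-CN libraries. All 3 si-N6AMT1 libraries were higher than all si-CN libraries, with a log2 fold change of 0.21 (SE 0.0333), or 1.15-fold. CEBPB (chromosome 20, 48807367 to 48809205 on the plus strand), a C/EBP factor that pairs with both, had 264.6, 261.9 and 262.5 CPM against 237.2, 248.9 and 244.0 CPM in si-CN. The groups were again separate, although the log2 fold change was only 0.11 (SE 0.0235).

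ATF5 (chromosome 19, 50431959 to 50437192 on the plus strand), a relative of ATF4 that is linked to stress in mitochondria, went the other way. It had 8.06, 8.41 and 7.06 CPM in si-N6AMT1 against 10.2, 10.5 and 9.93 CPM in si-CN libraries. Each si-N6AMT1 library was below each si-CN library, and the log2 fold change was -0.38 (SE 0.0904), or 0.767-fold. Between 145 and 211 counts per library stand behind these values, with a counting error of 6.96% in si-CN libraries, so the size of the difference is less well fixed than that of SESN2. Of the 10 genes, only ATF5 held in its 3′ UTR one of the pair of 7-base sequences, TTCACAT and TCACATA, that had been seen more often in lowered genes of these libraries. Of 13059 tested protein-coding genes, 22.6% held one, and of those called lower 44.4%. ATF5 is itself among the lowered genes of these libraries, so the match is no separate evidence, and its effect was not tested. In ATF5 it starts at base 377 of 843, shown in capitals within the plus strand of chr19:50436718-50436741 (GRCh37).
ATF5: tatgcccgTCACATAacagccgag

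PPP1R15A (chromosome 19, 49375469 to 49379316 on the plus strand) encodes GADD34, which brings a phosphatase to eIF2 and so ends the response. It was the other gene with lower values, at 265.3, 266.5 and 276.4 CPM in si-N6AMT1 against 306.3, 302.8 and 307.8 CPM in si-CN libraries. The 2 groups stood well apart, with a log2 fold change of -0.18 (SE 0.0231), or 0.881-fold. Neither 7-base sequence was in its 3′ UTR, which is only 85 bases long. TRIB3 (chromosome 20, 343479 to 378203 on the plus strand), a pseudokinase that CHOP induces and that in turn dampens ATF4 and CHOP, had 44.0, 42.9 and 42.4 CPM in si-N6AMT1 and 42.5, 42.5 and 42.7 CPM in si-CN libraries. These values overlapped, and the log2 fold change was 0.02 (SE 0.0391).

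ASNS (chromosome 7, 97480989 to 97501854 on the minus strand), which makes asparagine and is a classic target of ATF4, had 64.2, 64.5 and 63.5 CPM in si-N6AMT1 against 60.2, 61.0 and 56.7 CPM in si-CN libraries. The groups did not overlap, but the gap between the nearest libraries was small and the log2 fold change was 0.11 (SE 0.0360). Without si-CN replicate 3, the lowest library, it was 0.08 and no longer called, and it was also lost when any 1 of the si-N6AMT1 libraries was left out and under DESeq2. CHAC1 (chromosome 15, 41245160 to 41248710 on the plus strand), an enzyme that breaks down glutathione and rises strongly when ATF4 and CHOP are active, had 3.07, 2.10 and 3.50 CPM in si-N6AMT1 and 2.69, 2.69 and 2.26 CPM in si-CN libraries. Its lowest and highest values were both in si-N6AMT1 libraries. With 43 to 72 counts per library the log2 fold change was 0.19 with a standard error of 0.182, and with 1 library left out it ran from 0.02 to 0.37. The SD of its si-N6AMT1 libraries was 24.8% of their mean, and the counting error in si-CN libraries 14.0%, so a difference of this size could not be told from the spread between libraries.

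**Figure D2:**
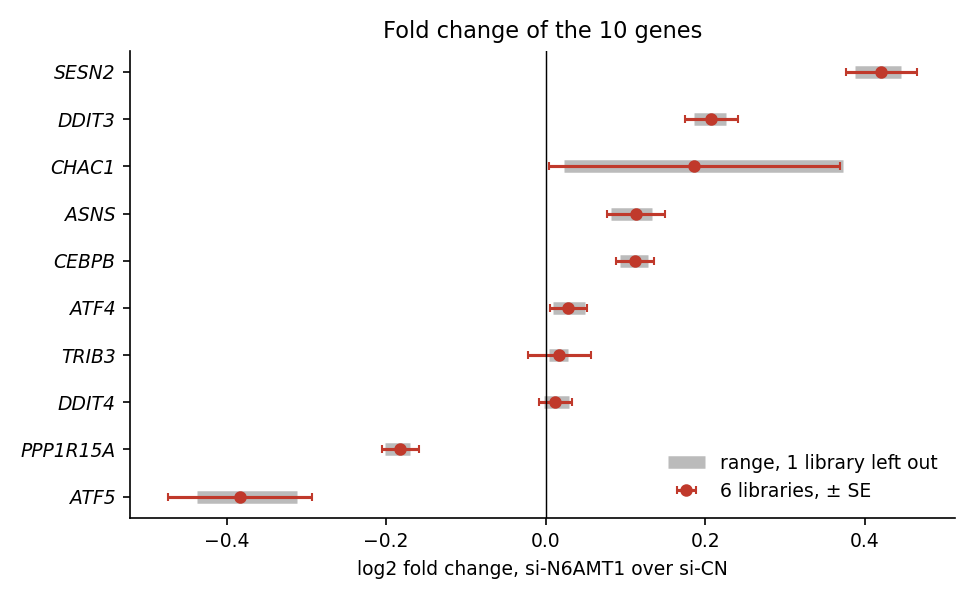
Log2 fold change of each of the 10 genes, si-N6AMT1 over si-CN, on the x axis. Points with bars are the estimate from 6 libraries ± its standard error, and grey bands are the range when each library is left out in turn. The bands of ATF5 and PPP1R15A lie below 0, that of DDIT4 includes it and the other 7 lie above, with TRIB3 (0.00 to 0.03) and ATF4 (0.01 to 0.05) close to it.

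Levels were compared between genes per transcript length, as estimated TPM, which scales for transcript length as well as library size. In si-CN libraries they covered a 341.6-fold range. DDIT4 was highest at 1275 ± 14.7 TPM (SD, n = 3), above 99.5% of 20019 protein-coding genes. ATF4 followed at 523.0 ± 9.50 TPM (SD, n = 3), then CEBPB at 295.0 ± 10.3 TPM (SD, n = 3) and PPP1R15A at 289.9 ± 3.94 TPM (SD, n = 3). The ranges of this last pair overlapped, so their order is not settled. DDIT3 had 172.9 ± 2.72, ASNS 55.4 ± 1.97, TRIB3 40.3 ± 0.520, SESN2 21.1 ± 0.686, ATF5 11.4 ± 0.365 and CHAC1 3.73 ± 0.343 TPM (SD, n = 3). All other neighbours in this order were separate in all 3 libraries. The spread between libraries leaves out error from the length of the 1 reference transcript per gene, so the order depends on those lengths. In si-N6AMT1 libraries CEBPB stood at 318.0 ± 4.73 TPM and PPP1R15A at 254.9 ± 5.41 TPM (SD, n = 3).

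**Figure D3:**
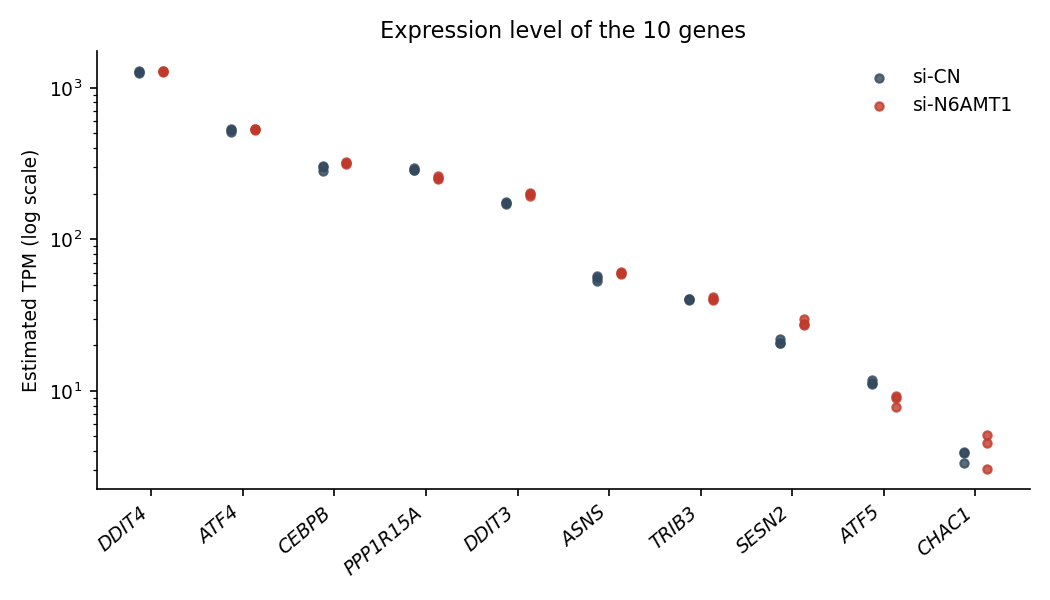
Estimated TPM of the 10 genes in each library on a log scale, ordered by their mean in si-CN libraries along the x axis. Each point is a library, with 3 per group. Levels run from DDIT4 at 1275 TPM to CHAC1 at 3.73 TPM in si-CN libraries, and differences between groups are small beside differences between genes.

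Replicate libraries were close. The coefficient of variation of CPM across 3 libraries had a median over the 10 genes of 2.64% in si-CN and 2.03% in si-N6AMT1 libraries, with CHAC1 the highest in both, at 9.79% in si-CN libraries. Some genes share genomic sequence with others, and whether strand was used in counting is not given, although the kit marks it. ATF5 overlaps NUP62 on the other strand, which had 1150 counts on average and a log2 fold change of -0.08 (SE 0.0372), the same sign as ATF5. DDIT3 overlaps MARS1 and MBD6, with log2 fold changes of -0.01 (SE 0.0247) and 0.14 (SE 0.0369), the second of which was called higher (edgeR FDR = 0.00657). The part of these neighbours in the values of ATF5 and DDIT3 was not tested. Pseudogenes named after ATF4 (4 genes) and ASNS (5 genes) had at most 0.833 counts on average each.

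Close relatives of the 10 genes were read from the same fit. They were chosen by family, and 9 of 11 passed the expression filter. Of these, 1 rose and 1 fell (11.1% each), near the shares among all tested genes, 9.78% called higher and 11.5% lower. SESN3, a sestrin like SESN2, had 13.7, 12.9 and 12.8 CPM in si-N6AMT1 and 22.5, 21.3 and 24.3 CPM in si-CN libraries. It fell in every si-N6AMT1 library, with a log2 fold change of -0.79 (SE 0.0678, edgeR FDR = 1.01e-08), opposite in sign to SESN2. SESN1 had 17.5 CPM on average against 18.8 CPM in si-CN and was not called (log2 fold change -0.11, SE 0.0650, edgeR FDR = 0.254). TRIB1, a relative of TRIB3 that guides C/EBP proteins to degradation, rose in every library, from 71.5 ± 0.521 to 86.9 ± 1.17 CPM (SD, n = 3; log2 fold change 0.28, SE 0.0305, edgeR FDR = 3.68e-07). TRIB2, CEBPA, CEBPD and PPP1R15B had log2 fold changes from -0.06 to 0.10 and were not called. CEBPG, a C/EBP partner of ATF4, had a log2 fold change of -0.10 and CHAC2 one of -0.23. For both, the groups did not overlap although the threshold was missed (edgeR FDR = 0.0519 and 0.0643). Both were called lower without si-N6AMT1 replicate 3, and CHAC2 also without si-CN replicate 3. CEBPE and DDIT4L had at most 6 and 1 counts in any library and were not tested.

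**Figure D4:**
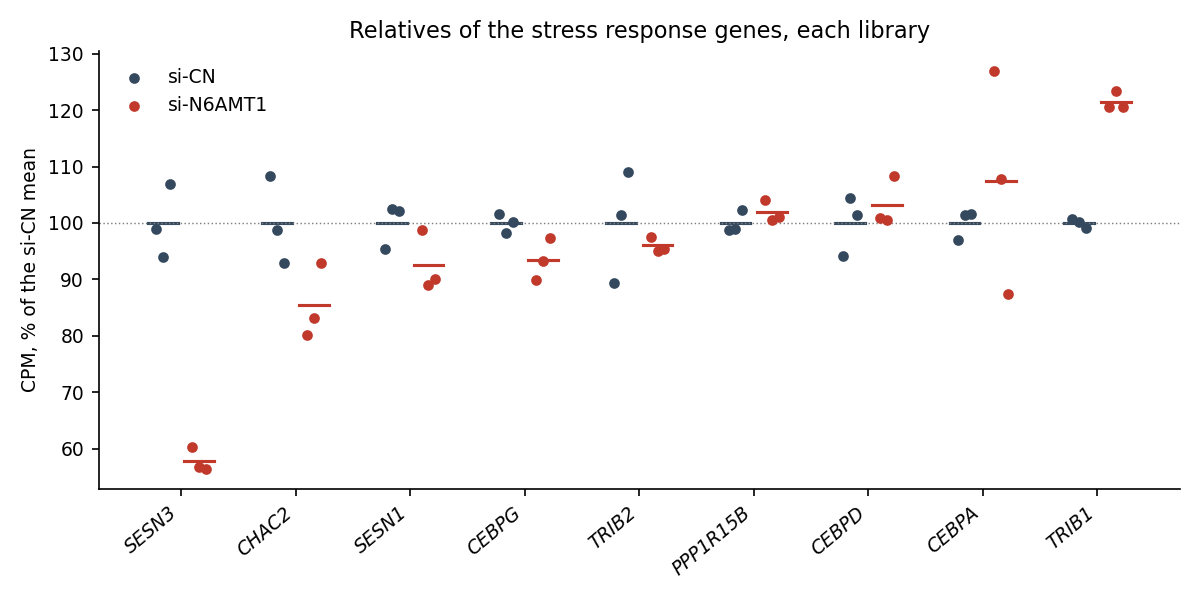
Expression of 9 relatives of the 10 genes in each library, as CPM in percent of the mean of the 3 si-CN libraries. Points are libraries, short lines are group means of 3 libraries. SESN3 lies below and TRIB1 above all of their si-CN libraries by the widest margins.

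The eIF2 switch upstream of ATF4 was described by 18 genes, with a median log2 fold change of 0.00275. Of these, 4 fell (22.2%) and 1 rose (5.56%), beside 11.5% and 9.78% of all tested genes. All 4 kinases that phosphorylate eIF2 were looked at after their values had been seen. EIF2AK4 (GCN2, which senses uncharged tRNA) fell from 72.3 ± 2.67 to 63.0 ± 2.69 CPM (SD, n = 3; log2 fold change -0.20, SE 0.0377, edgeR FDR = 0.000407). EIF2AK3 (PERK, which senses unfolded protein in the ER) fell from 40.2 ± 1.52 to 35.3 ± 0.739 CPM (SD, n = 3; log2 fold change -0.19, SE 0.0437, FDR = 0.00302 from the same edgeR test). EIF2AK1, the heme-regulated kinase, and EIF2AK2, which senses double-stranded RNA, were not called, with log2 fold changes of 0.01 and -0.06, although EIF2AK2 was called lower without si-N6AMT1 replicate 1 (log2 fold change -0.09). DNAJC3, an ER co-chaperone also known to inhibit these kinases, fell most in the list (log2 fold change -0.37, SE 0.0320, edgeR FDR = 1.21e-08). The gene that rose was OMA1, a mitochondrial protease that relays mitochondrial stress to eIF2 (log2 fold change 0.31, SE 0.106, edgeR FDR = 0.0416). OMA1 was not called under DESeq2 or limma-voom, or when si-N6AMT1 replicate 3, si-CN replicate 1 or si-CN replicate 2 was left out, and ran from 0.18 to 0.39 with 1 library left out.

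Other targets of ATF4 were called in both directions, beside 9.78% of all tested genes called higher and 11.5% lower. Among 20 transporters and enzymes of amino acid supply, 2 rose (10%) and 6 fell (30%), with a median log2 fold change of -0.04. SLC7A11, the cystine importer, rose from 78.5 ± 1.18 to 89.7 ± 0.731 CPM (SD, n = 3; log2 fold change 0.19, SE 0.0299, edgeR FDR = 4.43e-05). ALDH18A1, an enzyme of proline synthesis, fell from 135.9 ± 3.02 to 108.9 ± 2.78 CPM (SD, n = 3; log2 fold change -0.32, SE 0.0283, edgeR FDR = 1.77e-08). Of 12 tRNA synthetases and the tRNA exporter XPOT, 13 genes in all, 2 fell (15.4%) and 0 rose in edgeR's test, with a median of -0.01. DESeq2 and limma-voom also called 0 of them higher, while at an unadjusted p under 0.05 in edgeR's test 1 was higher and 5 were lower. TARS1, which charges threonine tRNA, fell most (log2 fold change -0.09, SE 0.0213, edgeR FDR = 0.00366). Among 17 tested stress targets of ATF4 or CHOP, 4 rose (23.5%) and 2 fell (11.8%), with a median of -0.03. GDF15, a secreted stress signal, rose from 27.4 ± 1.01 to 33.4 ± 1.54 CPM (SD, n = 3; log2 fold change 0.29, SE 0.0501, edgeR FDR = 0.000171). The other 3 that rose were BCL2L11 and PMAIP1, which promote cell death, and the transcription factor ATF3. PMAIP1 was not called without si-N6AMT1 replicate 2 or si-CN replicate 2, and ATF3 was not called without si-CN replicate 3, and their log2 fold changes with 1 library left out ran from 0.07 to 0.10 and from 0.10 to 0.19. ERO1A, an oxidase of the ER, and KLHL24 fell, with log2 fold changes of -0.17 and -0.20.

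The IRE1 and ATF6 arms of the unfolded protein response, which act beside the PERK arm, were described by 20 genes. Of these, 4 rose (20%) and 7 fell (35%), beside 9.78% and 11.5% of all tested genes. Log2 fold changes of the 20 had a median of -0.01. SDF2L1, an ER chaperone, rose most (log2 fold change 0.34, SE 0.0607, edgeR FDR = 0.000264). DNAJC3 fell most (log2 fold change -0.37) and is counted both here and in the eIF2 list above. HSPA5, the main ER chaperone BiP, was named after its value had been seen and fell from 1192 ± 18.0 to 1024 ± 22.3 CPM (SD, n = 3; log2 fold change -0.22, SE 0.0211, edgeR FDR = 6.46e-08). Of 26 tested genes of mTORC1 and its brakes, on which SESN2 and DDIT4 act, 3 rose and 3 fell, with a median of 0.03. At 11.5% each, these shares were near those of all tested genes. MTOR fell from 92.5 ± 1.86 to 84.3 ± 1.79 CPM (SD, n = 3; log2 fold change -0.13, SE 0.0305, edgeR FDR = 0.00264), and RRAGC, a GTPase that carries the amino acid signal, by a like amount (log2 fold change -0.13). LAMTOR2, part of the lysosomal anchor of those GTPases, rose most among called genes (log2 fold change 0.20, SE 0.0582, edgeR FDR = 0.0142), but was not called under DESeq2 or without si-N6AMT1 replicate 1 or si-CN replicate 3. With 1 library left out it ran from 0.16 to 0.23. Counted once, 120 listed genes were tested, of which 15 rose (12.5%) and 24 fell (20%), beside 9.78% and 11.5% of all tested genes. A 7-base sequence named above was in the 3′ UTR of 37.5% of the 24 that fell and 13.3% of the 15 that rose, where the shares among all tested genes of the same kind were 44.4% and 11.8%. Matches to either sequence, which can overlap, numbered 6 in KLHL24, 4 in DNAJC3, 3 in SESN3 and 2 in ALDH18A1, which all fell. TARS1, ERO1A, MTOR and RRAGC also fell and held 0. Of the genes named for a largest rise, SLC7A11 held 1 and OMA1, TRIB1, LAMTOR2, GDF15 and SDF2L1 held 0. Both sequences came from lowered genes of these same libraries, so a higher share among genes that fell is no separate evidence. Their effect was not tested.

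**Figure D5:**
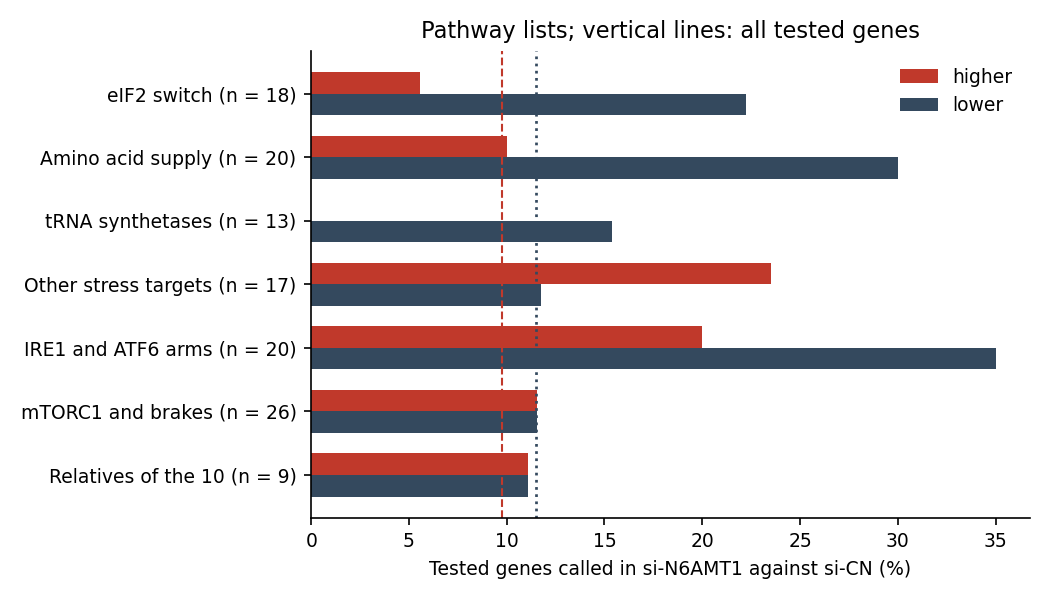
Share of tested genes in each pathway list that were called higher or lower in si-N6AMT1 libraries, in percent on the x axis, with the number tested beside each name. The dashed line at 9.78% and the dotted line at 11.5% mark the shares called higher and lower among all tested genes. The tRNA synthetase list has no gene called higher, and the unfolded protein list has the longest bar, for lower genes.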

How the data were processed

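Reads were trimmed by the authors (Trim Galore v0.6.5) and quantified with kallisto v0.46.0 against GENCODE v33 on hg19. The deposited values are estimated counts, summed over the transcripts of a gene and given as whole numbers without normalization. These were analysed here with edgeR v4.0.16 under R v4.3.3. Its expression filter was used with a minimum count of 10, libraries were scaled by TMM, and the quasi-likelihood test had no covariate. P-values were adjusted over all genes tested (FDR, Benjamini-Hochberg), and a standard error is the absolute log2 fold change over the square root of F. TPM used the length of 1 reference transcript per gene from GENCODE v44 on GRCh37, which also gave symbols, positions and UTRs. Promoter windows came from RefSeq (GRCh38.p14). The fit was tested on simulated data. Chi-square over degrees of freedom was 1.36 to 1.77 for library pairs of 1 group and 6.85 to 7.81 across groups.

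The 10 genes and all lists, written from general knowledge, were chosen with earlier results of these data known. Text names all 10, N6AMT1, the family relatives and, per list, the genes with the smallest FDR and the largest rise and fall. The eIF2 kinases, HSPA5, BCL2L11, PMAIP1, ATF3 and MBD6 were added after their values were seen. One further list and 1 marker of the line drawn up with them are not reported here, for a reason unrelated to their values. Alternatives were RLE size factors, DESeq2 v1.42.0 (also on genes with TPM of at least 1), limma-voom v3.58.1, omission of the expression filter, scaling without mitochondrial genes, the replicate number as a block, and each library left out. Protein sequences were not analysed here.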

Additional observations from a re-analysis of the deposited data

How the results depend on the processing

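Fold changes of the 10 genes kept their sign and their side of the threshold under all 13 alternatives except those of ASNS, described above, and DDIT4, and except that DESeq2 gave CHAC1 no adjusted p, with or without the TPM minimum. With each library left out in turn DDIT4 ran from -0.0017 to 0.0288 on the log2 scale, TRIB2 from -0.1346 to 0.0097 and CEBPA from -0.0351 to 0.2293, each turning sign in 1 fit. Of the other named genes, OMA1, LAMTOR2, PMAIP1, ATF3, EIF2AK2, CHAC2 and CEBPG changed their call as given above, and MBD6 lost its call under DESeq2 with the TPM minimum, as PMAIP1 did. Over all genes, DESeq2 called 955 higher and 1275 lower, and 930 and 1239 on genes with a TPM of at least 1, compared with 1694 and 1993. Of the genes called by DESeq2, 2229 were shared with edgeR. For the eIF2 list, 0 genes were higher under DESeq2, DESeq2 with the TPM minimum and limma-voom, and 0 to 1 with 1 library left out. Of the amino acid supply list, 4 genes were lower under DESeq2, with and without the TPM minimum, and 7 under limma-voom. With 1 library left out, 4 to 7 of that list were lower. In the tRNA synthetase list 1 gene was lower under DESeq2, with and without the TPM minimum, and 1 to 3 with 1 library left out. The mTORC1 list had 1 higher gene under DESeq2 and 0 with the TPM minimum. With 1 library left out the unfolded protein list had 2 to 4 higher genes, the 2 without si-CN replicate 2, and the relatives had 1 to 3 lower genes, 3 without si-N6AMT1 replicate 3 and 2 without si-CN replicate 3.

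Replicate numbers did not pair the libraries, since same-numbered libraries had correlations of -0.0381, -0.0422 and 0.00997. With the replicate number as a block, 1522 genes were higher and 1803 lower, and 1 tRNA synthetase was lower. Of the 10 genes CHAC1 had the fewest counts and the widest spread between libraries.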
